A study of Mus musculus with 21 samples.

Results

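The AP-1 genes described here are Jun, Junb, Jund, Fos, Fosb, Fosl1, Fosl2, Atf3 and Maff. They were taken by gene symbol, as members or relatives of the AP-1 family, and all 9 were measured in each of a pair of array tables, out of 18193 genes in mouse mammary NMuMG cells and 12393 genes in mouse NM18 cells. Where several probe sets carried a symbol, the one with the highest mean over the arrays of a table stood for the gene, and the others served as a check. Every NMuMG culture received 200 µM 4-thiouridine (4sU), a uridine analogue that marks RNA made while it is present, for 2 h. The 4 NMuMG groups were newly made RNA of cells given 5 ng/ml transforming growth factor beta 1 (TGF-b1) for those 2 h, newly made RNA of control cells without TGF-b1, total RNA of the TGF-b1 cells and total RNA of the control cells. Newly made RNA was the 4sU-labelled fraction, enriched on mercury-based columns. Every NM18 culture received 25 nM of an siRNA for 48 h. The 3 NM18 groups were FoxQ1 siRNA with 5 ng/ml TGF-b1 for the last 40 h, scrambled control siRNA (ns-siRNA) with the same TGF-b1, and ns-siRNA without TGF-b1. Each group held 3 arrays of cultures described as biological replicates. No FoxQ1 siRNA group without TGF-b1 was part of the design. For array 1 of ns-siRNA without TGF-b1 a free-text note describes both siRNAs and TGF-b1 together, against its title. It was grouped by the title, and results against ns-siRNA alone are also given without this array.

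AP-1 is a transcription factor made of paired proteins that join through a leucine zipper and bind DNA through a basic region. Jun proteins pair with each other or with Fos proteins, while Fos proteins need a Jun partner. Several of the genes belong to the immediate-early class, which is switched on by growth factors and stress through MAP kinases with no need for new protein. In epithelial cells exposed to TGF-b1, AP-1 is known to act together with SMAD proteins at shared target genes. Atf3 encodes a related factor that pairs with Jun proteins and is known as a stress-response gene. Maff encodes a small Maf protein, which has the zipper and the basic region but no activation domain.

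Promoters are shown for Jun, Fosl2, Junb, Atf3 and Maff, while those of Jund, Fos and Fosb were searched but are not printed. The 250 bases before the annotated start came from RefSeq on GRCm38.p6, and 8 of the 9 genes matched. Fosl1 is named only. Capitals mark a CRE-type AP-1 site or a forkhead core, the Fosl2 and Atf3 windows hold none of the letters searched, and all sequences run 5′ to 3′ on the strand of the gene.
Jun (chr4:95052223-95052472, minus strand): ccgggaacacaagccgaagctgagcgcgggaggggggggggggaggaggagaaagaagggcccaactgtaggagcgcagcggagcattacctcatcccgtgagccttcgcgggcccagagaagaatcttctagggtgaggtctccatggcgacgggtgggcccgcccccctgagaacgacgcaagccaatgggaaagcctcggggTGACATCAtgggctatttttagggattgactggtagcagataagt
Fosl2 (chr5:32136222-32136471, plus strand): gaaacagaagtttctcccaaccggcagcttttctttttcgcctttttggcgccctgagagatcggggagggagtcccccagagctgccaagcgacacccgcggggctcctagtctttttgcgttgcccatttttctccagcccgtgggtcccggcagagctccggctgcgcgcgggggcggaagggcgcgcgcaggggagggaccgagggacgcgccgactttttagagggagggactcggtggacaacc
Junb (chr8:84978749-84978998, minus strand): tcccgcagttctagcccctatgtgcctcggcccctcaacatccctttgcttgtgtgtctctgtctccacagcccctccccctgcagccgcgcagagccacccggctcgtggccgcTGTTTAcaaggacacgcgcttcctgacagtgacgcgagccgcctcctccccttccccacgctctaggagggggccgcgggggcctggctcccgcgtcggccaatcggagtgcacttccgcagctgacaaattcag
Atf3 (chr1:191183334-191183583, minus strand): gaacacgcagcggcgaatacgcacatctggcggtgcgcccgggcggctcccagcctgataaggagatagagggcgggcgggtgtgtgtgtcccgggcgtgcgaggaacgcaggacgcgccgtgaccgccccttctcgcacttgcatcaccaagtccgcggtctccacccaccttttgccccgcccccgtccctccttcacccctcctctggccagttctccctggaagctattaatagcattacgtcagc
Maff start 2 (chr15:79347481-79347508, plus strand): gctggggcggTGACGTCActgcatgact
Maff start 3 (chr15:79348347-79348374, plus strand): tggagccatgTGACATCAgtgtttgttc

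Both strands were searched for 6 motifs. The CRE-type AP-1 site TGACNTCA was in the Jun window at bases -45 to -38 before the start, as TGACATCA. Maff has 3 annotated starts, and the same motif stood before start 2 at bases -29 to -22, as TGACGTCA, and before start 3 at bases -45 to -38, as TGACATCA. For each of these Maff sites only the site and 10 bases on either side are printed. Over 32851 promoters of the same length, 7.49% held this motif. The forkhead core TGTTTA was in the Junb window at bases -135 to -130 and in no other AP-1 window, against 12% of all promoters. The SMAD-binding letters CAGAC, found in 42.2% of all promoters, were only before Maff start 3, on the other strand as GTCTG at bases -155 to -151. The letters TATAAA were only in the Fos window, at bases -33 to -28, and in 12.4% of all promoters. The AP-1 site TGANTCA, held by 6.75% of all promoters, and the CArG box, held by 1.47%, were in no window of the 8 genes. No matches overlapped each other. A match is a run of letters and not a shown binding site, and a missing match says only that these letters are not in the window.

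In both cell lines epithelial markers were above the median gene level more often than markers of other cell types. Of 10 epithelial markers 8 were above it in NMuMG cells and 6 in NM18 cells. As many genes lie above a median as below it, so the 6 in NM18 cells are near the share of all genes. Above the median were 1 of 6 basal, 1 of 8 fibroblast, 1 of 8 leukocyte and 0 of 5 endothelial markers in NMuMG cells, against 0, 0, 1 and 0 in NM18 cells. In bulk RNA of this kind, fewer cells that express a gene and less RNA per cell cannot be told apart. Foxq1, the siRNA target, read 7.57, 8.09 and 7.97 (log2, arrays 1 to 3) with FoxQ1 siRNA and TGF-b1. It read 9.08, 9.04 and 9.33 with ns-siRNA and TGF-b1, and 7.91, 8.49 and 8.38 with ns-siRNA alone. All 3 FoxQ1 siRNA arrays lay below the ns-siRNA arrays with TGF-b1. All values below are deposited log2 expression values, listed for arrays 1, 2 and 3, so that a difference of 1 means a doubling. A gene was called at a Benjamini-Hochberg adjusted p under 0.05 in limma, adjusted over all genes of the table, and a value after ± is the standard error of a log2 change or the SD of a level over 3 arrays.

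After 2 h of TGF-b1, newly made RNA held more Jun, Fosl2 and Maff RNA, and no AP-1 gene was called lower. The 3 of 9 genes called compare with 6.13% of all genes called, 3.35% higher and 2.79% lower. The median change of the 9 genes was 0.66, against -0.01 over all genes. At an unadjusted p under 0.05 there were 7 AP-1 genes, against 2866 of all 18193 genes. The 7 include Jund, which was lower, at -0.26.

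Among the Jun family, Jun, the founding member, read 10.44, 10.69 and 10.57 in newly made RNA of TGF-b1 cells, against 9.73, 9.93 and 9.78 in newly made RNA of control cells. Every TGF-b1 array was above every control array. The change was 0.76 ± 0.12, or 1.69-fold (adjusted p = 0.000634), and the other Jun probe set gave 0.88 (adjusted p = 0.00415 over all probe sets). Junb, a Jun relative known as an early TGF-b target, read 10.21, 9.0 and 9.28 in TGF-b1 cells, against 9.38, 8.28 and 8.37 in control cells. Array 1 was high in both groups, so that the groups overlapped, while the difference within each array number was 0.83, 0.73 and 0.91. The change of 0.82 ± 0.28 was not called (adjusted p = 0.116), and without array 1 of control newly made RNA it was called (adjusted p = 0.00507). Jund, the Jun member known for steady expression in resting cells, read 10.70, 10.90 and 10.62 in TGF-b1 cells, against 11.06, 11.08 and 10.87 in control cells. The groups overlapped, and the change of -0.26 ± 0.12 was not called (adjusted p = 0.300).

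Among the Fos family, Fos, the classical growth factor-induced gene, read 12.37, 12.11 and 12.17 in newly made RNA of TGF-b1 cells, against 11.79, 11.39 and 11.95 in control cells. The groups did not overlap, and the change of 0.51 ± 0.19 was not called (adjusted p = 0.180). Fosb, another inducible Fos gene, read 8.97, 7.51 and 8.24 in TGF-b1 cells, against 7.91, 6.81 and 7.50 in control cells. Arrays within a group lay further apart than the group means, and the change of 0.84 ± 0.31 was not called (adjusted p = 0.154). It was called without array 1 of control newly made RNA (0.0379) or array 2 of TGF-b1 newly made RNA (0.0239). Fosl2, which encodes a Fos-related protein without the strong activation domain of Fos, read 12.66, 12.67 and 12.67 in TGF-b1 cells, against 11.94, 12.08 and 11.95 in control cells. Among the 9 genes these were the tightest groups in newly made RNA, and they did not overlap. Its change was 0.68 ± 0.11, or 1.60-fold (adjusted p = 0.000953). The second Fosl2 probe set, 1422931_at, gave 0.17 and was not called (adjusted p = 0.543 over all probe sets). Fosl1, the other Fos-related gene, read 8.80, 9.64 and 9.38 in TGF-b1 cells, against 9.10, 9.73 and 9.79 in control cells. Its groups overlapped, and the change of -0.27 ± 0.20 was not called (adjusted p = 0.645).

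Atf3 read 8.49, 7.99 and 8.04 in newly made RNA of TGF-b1 cells, against 8.49, 7.95 and 8.01 in control cells. Array by array these values nearly coincided. The change was 0.02, with a 95% interval from -0.35 to 0.39 (adjusted p = 0.980). Maff read 9.10, 8.49 and 8.44 in TGF-b1 cells, against 8.45, 7.73 and 7.86 in control cells. A single control array, number 1, lay within the TGF-b1 range. The change of 0.66 ± 0.19 was called at the edge (adjusted p = 0.0441), and 12 of 19 alternative settings lost the call. Leaving out array 1 or 2 of TGF-b1 newly made RNA, array 2 or 3 of control newly made RNA or any 1 total RNA array was enough, with adjusted p up to 0.221 without array 2 of control newly made RNA.

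**Figure D1:**
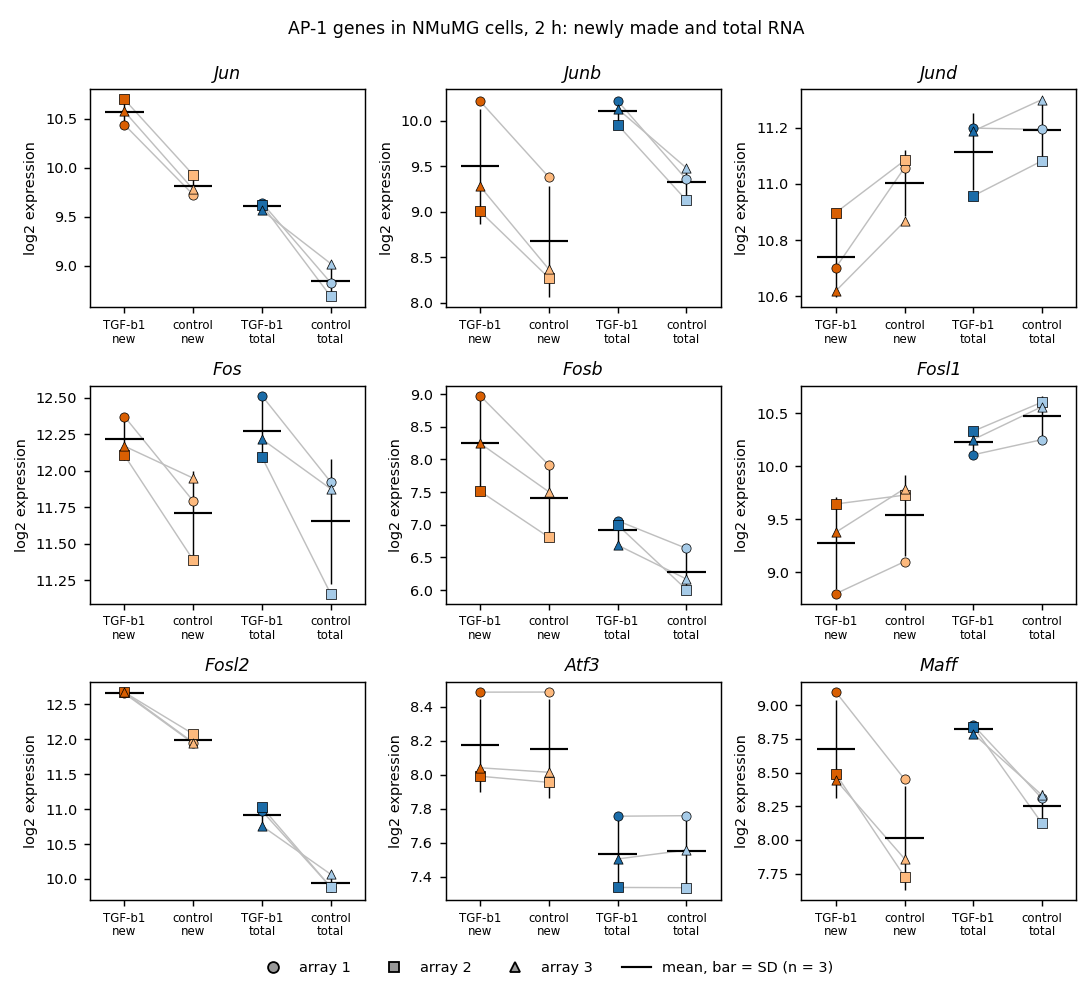
Log2 expression of the 9 AP-1 genes in NMuMG cells after 2 h, with TGF-b1 left of control for newly made RNA and then for total RNA. Points are single arrays with lines joining arrays of 1 number within a kind of RNA, and bars show the mean and SD of 3 arrays. Jun and Fosl2 separate by treatment in both kinds of RNA, while Junb and Fosb arrays spread with their number in newly made RNA.

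Same-numbered arrays deviated together by the check given with the processing, which does not show that they share a culture. With the number as a replicate block 6 AP-1 genes were called higher in newly made RNA, against 8.81% of all genes. The added genes were Junb (adjusted p = 0.00434), Fosb (0.00395) and Fos (0.0193), while the adjusted p of Maff was 0.00348. Changes themselves were the same as without the block. Jund, Fosl1 and Atf3 were not called with the block either.

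In total RNA of the same cells, Jun and Fosl2 were called higher and no AP-1 gene was called lower, that is 2 of 9 genes, against 2.48% of all genes. Over all genes 1.46% were called higher and 1.02% lower. The median change of the 9 genes was 0.62, against -0.03 over all genes.

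Jun read 9.64, 9.62 and 9.57 in total RNA of TGF-b1 cells, against 8.83, 8.69 and 9.03 in total RNA of control cells. The groups lay apart, with a change of 0.76 ± 0.12 (adjusted p = 0.00116), and the other Jun probe set gave 0.73 (adjusted p = 0.0320 over all probe sets). Junb read 10.22, 9.96 and 10.13 in TGF-b1 cells, against 9.36, 9.13 and 9.48 in control cells. Here the groups did not overlap, and the change of 0.78 ± 0.28 was not called (adjusted p = 0.272). Jund read between 10.96 and 11.20 in TGF-b1 cells, against 11.08 to 11.30 in control cells, a change of -0.08 (adjusted p = 0.929).

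Fosl2 read 10.98, 11.03 and 10.76 in total RNA of TGF-b1 cells, against 9.89, 9.88 and 10.07 in control cells. Of the 9 genes it had the highest change in total RNA, 0.98 ± 0.11 or 1.97-fold (adjusted p = 5.36e-05), and the groups did not overlap. Its second probe set again gave less, 0.29 (adjusted p = 0.292 over all probe sets). Fos read 12.52, 12.10 and 12.22 in TGF-b1 cells, against 11.92, 11.16 and 11.88 in control cells. Without overlap, its change of 0.62 ± 0.19 was not called (adjusted p = 0.151). Fosb read 7.06, 7.0 and 6.69 in TGF-b1 cells, against 6.64, 6.01 and 6.17 in control cells. The lowest TGF-b1 array was just above the highest control array, and the change of 0.64 ± 0.31 was not called (adjusted p = 0.533). Fosl1 read 10.11 to 10.33 in TGF-b1 cells, against 10.25 to 10.61 in control cells, a change of -0.24 (adjusted p = 0.852).

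Maff read 8.85, 8.84 and 8.79 in total RNA of TGF-b1 cells, against 8.31, 8.12 and 8.33 in control cells. Its groups lay apart, and the change of 0.57 ± 0.19 was not called (adjusted p = 0.177), though it was without array 1 of control newly made RNA (0.0472). Atf3 read 7.34 to 7.76 in TGF-b1 cells, against 7.33 to 7.76 in control cells, a change of -0.02 (adjusted p = 0.991). With the replicate block 5 AP-1 genes were called higher in total RNA, against 3.85% of all genes. Junb (adjusted p = 0.0137), Fos (0.00738) and Maff (0.0230) joined Jun and Fosl2, and Fosb had an adjusted p of 0.0535. A fit on the total RNA arrays alone also called 5, with Fosb (0.0472) in place of Fos (0.110). The share of all genes called in that fit is not given here, so its count has no background beside it.

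Whether TGF-b1 moved an AP-1 gene by different amounts in newly made and in total RNA was tested as an interaction. None of the 9 was called, and none had an unadjusted p under 0.05, with 0.0660% of all genes called (0.0110% higher and 0.0550% lower) and 532 genes at an unadjusted p under 0.05. The difference of effects, newly made minus total, was -0.00 for Jun, with a 95% interval from -0.36 to 0.35. For Fosl2 it was -0.30, with an interval from -0.63 to 0.03. The widest interval was that of Fosb, from -0.73 to 1.11 around 0.19.

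**Figure D2:**
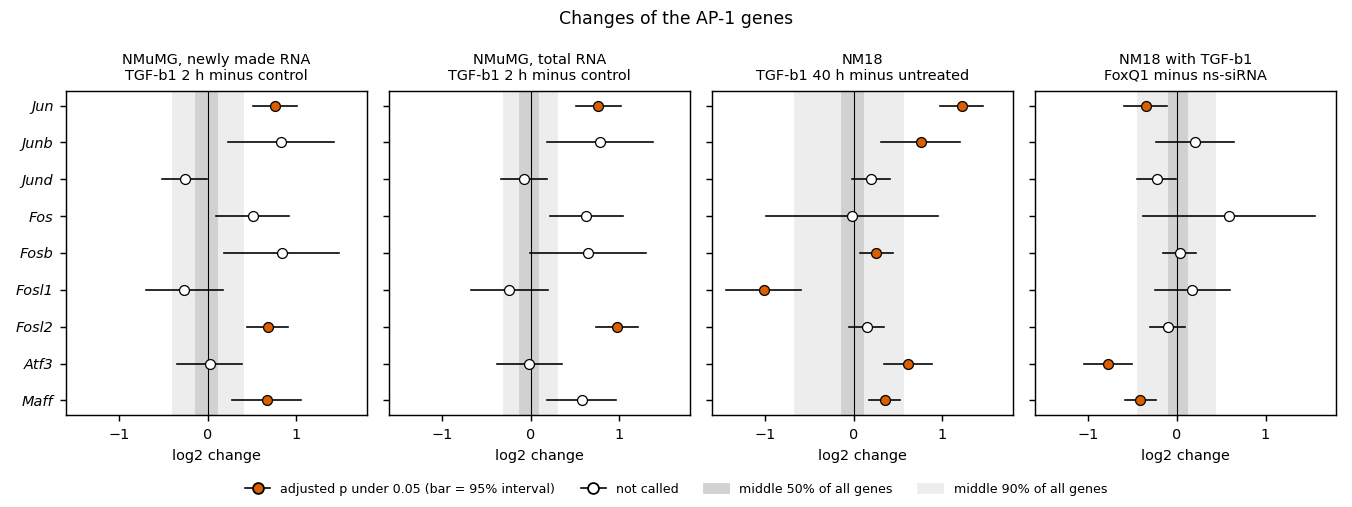
Log2 changes of the 9 AP-1 genes in 4 comparisons, with 95% intervals; orange points have an adjusted p under 0.05 and grey bands hold the middle 50% and 90% of all genes. Jun is called in all 4 panels, higher with TGF-b1 in both cell lines and lower with FoxQ1 siRNA, and Fosl1 is called only at 40 h, where it is lower.

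Set against total RNA, newly made RNA held more Fosl2, Fosb, Jun and Atf3 and less Fosl1, with or without TGF-b1. In TGF-b1 cells 6 of the 9 genes were called, 4 higher and 2 lower, and 45.0% of all genes were called, 18.3% higher and 26.8% lower. In control cells 5 were called, 4 higher and 1 lower, and 44.0% of all genes were called, 17.2% higher and 26.8% lower. Against so high a background these counts are not a result about AP-1 genes, and the sizes of the differences are given instead.

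Fosl2 had the largest difference of the 9, 1.75 ± 0.11 in TGF-b1 cells (adjusted p = 3.40e-09) and 2.04 ± 0.11 in control cells (adjusted p = 1.63e-09). In mean level it stood at 12.67 ± 0.01 in newly made RNA of TGF-b1 cells, 11.99 ± 0.07 in newly made RNA of control cells, 10.92 ± 0.14 in total RNA of TGF-b1 cells and 9.95 ± 0.11 in total RNA of control cells (SD, n = 3), and no neighbours in this order overlapped. The other Fosl2 probe set did not show the difference, at -0.14 in TGF-b1 cells (adjusted p = 0.297) and -0.02 in control cells (adjusted p = 0.912 over all probe sets). Fosb was higher in newly made RNA by 1.33 ± 0.31 in TGF-b1 cells (adjusted p = 0.00175) and 1.14 ± 0.31 in control cells (adjusted p = 0.00586). Its mean level in total RNA of control cells, 6.27, lay below the median gene level of 6.67. Jun followed with 0.96 ± 0.12 in both (adjusted p = 3.81e-06 and 3.93e-06). Its mean levels ran from 10.57 ± 0.13 in newly made RNA of TGF-b1 cells over 9.81 ± 0.10 in newly made RNA of control cells and 9.61 ± 0.04 in total RNA of TGF-b1 cells to 8.85 ± 0.17 in total RNA of control cells, again without overlap between neighbours. Atf3 was higher by 0.64 ± 0.17 in TGF-b1 cells (adjusted p = 0.00595) and 0.60 ± 0.17 in control cells (adjusted p = 0.00929, or 0.0535 without array 2 of control total RNA). Its levels in TGF-b1 and control cells could not be ordered within either kind of RNA.

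Fosl1 was the AP-1 gene lower in newly made RNA in both, by -0.96 ± 0.20 in TGF-b1 cells (adjusted p = 0.000903) and -0.94 ± 0.20 in control cells (adjusted p = 0.00116). Its second probe set moved the same way, by -0.66 and -0.98 (adjusted p = 0.0131 and 0.000719 over all probe sets). Jund was called lower in TGF-b1 cells only, at -0.37 ± 0.12 (adjusted p = 0.0177), against -0.19 ± 0.12 in control cells (adjusted p = 0.235), and the difference of these values is the interaction, which was not called. With all Jund probe sets averaged it was called lower in control cells too (0.0239). That average includes probe set 1440265_at, whose mean level of 4.75 lay below the median gene level of 6.67. Centring each array on its median ended the Jund call in TGF-b1 cells (adjusted p = 0.104), as did leaving out array 3 of TGF-b1 newly made RNA or array 1 or 3 of TGF-b1 total RNA (0.0640 to 0.0827). Fos stood at -0.06 in TGF-b1 cells and 0.06 in control cells, and Maff at -0.15 and -0.24, with no call. Junb was at -0.60 ± 0.28 in TGF-b1 cells (adjusted p = 0.0983) and -0.65 ± 0.28 in control cells (adjusted p = 0.0767). Without array 1 of TGF-b1 newly made RNA Junb was called lower in TGF-b1 cells, at -0.96 (adjusted p = 0.00348), and in control cells (0.0216). Without array 1 of control newly made RNA it was called lower in TGF-b1 cells (0.0286) and in control cells (0.00228), where Maff was then called too, at -0.46 (adjusted p = 0.0326).

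Both kinds of RNA also differed in RNA quality readings. The 3′ minus 5′ difference of the Gapdh control probe sets, in log2, was 2.68 to 3.39 in newly made RNA of TGF-b1 cells and 2.67 to 3.72 in that of control cells. It was 1.87 to 1.92 in total RNA of TGF-b1 cells and 1.63 to 1.94 in that of control cells. Of 10 epithelial markers 6 were called lower in newly made RNA in both TGF-b1 and control cells, against 26.8% of all genes in each. Their mean level was 8.54 to 8.89 in newly made RNA of TGF-b1 cells and 8.42 to 8.61 in that of control cells, and 9.57 to 9.74 in total RNA of TGF-b1 cells and 9.40 to 9.47 in that of control cells. These readings move with the kind of RNA, and their part in the result was not tested. Median centring moved the median of all genes to 0.04 in TGF-b1 cells, against -0.08 as deposited, and to 0.03 in control cells, against -0.08 as deposited. It also moved the balance of all called genes, to 4019 higher and 3978 lower in TGF-b1 cells, against 3321 and 4872 as deposited, and to 3828 higher and 4035 lower in control cells, against 3131 and 4877 as deposited. Under that scaling Fosl2, Fosb, Jun, Atf3 and Fosl1 kept their direction and their call.

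**Figure D3:**
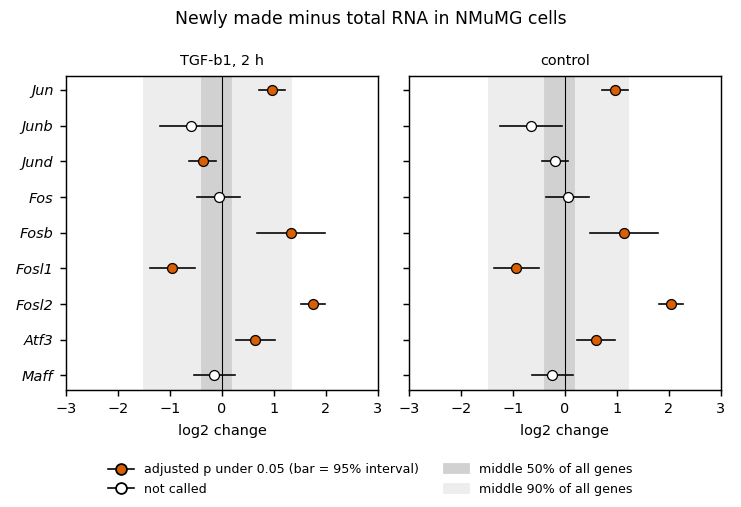
Newly made minus total RNA (log2 change with 95% interval) for the 9 AP-1 genes in TGF-b1 cells and in control cells; orange points have an adjusted p under 0.05 and grey bands hold the middle 50% and 90% of all genes. Fosl2, at 1.75 and 2.04, lies outside the 90% band in both panels, Fosb lies at its edge, and Fosl1 lies on the lower side inside it.

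After 40 h of TGF-b1 in NM18 cells under ns-siRNA, Jun, Junb, Atf3, Maff and Fosb were called higher and Fosl1 was called lower. These 6 of 9 genes compare with 30.7% of all genes called, 13.2% higher and 17.5% lower. The median change of the 9 was 0.25, against 0.00 over all genes. Levels of this table are not set against those of NMuMG cells, because the tables were made separately, and Jun and Fosl2 are represented by other probe sets than in NMuMG cells.

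Jun read 10.53, 10.31 and 10.44 with TGF-b1, against 9.20, 9.04 and 9.39 without. The groups lay far apart, and the change of 1.22 ± 0.11, or 2.32-fold (adjusted p = 1.60e-05), was the largest of the 9. The other Jun probe set gave 1.12 (adjusted p = 1.6e-05 over all probe sets). Junb read 10.50, 10.27 and 10.81 with TGF-b1, against 9.47, 9.62 and 10.24 without. Array 3 was highest in both groups, and the lowest TGF-b1 array was just above the highest array without TGF-b1. Its change was 0.75 ± 0.20 (adjusted p = 0.0139), and the call was lost without array 1 of ns-siRNA alone (0.0615) or array 3 of ns-siRNA with TGF-b1 (0.0617). Jund read 11.44, 11.28 and 11.41 with TGF-b1, against 11.09, 11.30 and 11.16 without. The groups overlapped, and the change of 0.19 ± 0.10 was not called (adjusted p = 0.178).

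Fos read 7.94, 8.05 and 8.28 with TGF-b1, against 8.05, 6.91 and 9.38 without. The 3 arrays without TGF-b1 had an SD of 1.23, the widest of any AP-1 gene and group, and they enclosed the TGF-b1 arrays. The change of -0.02 has a 95% interval from -0.99 to 0.95 (adjusted p = 0.979). It was -0.62 without array 2 of ns-siRNA alone and 0.61 without array 3, with no call in either. Fosb read 5.97, 5.86 and 6.09 with TGF-b1, against 5.65, 5.81 and 5.71 without. The groups touched without overlapping, and the change of 0.25 ± 0.08 was called at the edge (adjusted p = 0.0417), with 6 of 14 alternatives losing the call. These were quantile normalization and leaving out array 3 of FoxQ1 siRNA, array 1 or 3 of ns-siRNA with TGF-b1 or array 1 or 3 of ns-siRNA alone, with adjusted p up to 0.158. Fosb lay below the median gene level in this table. Fosl1 read 8.56, 8.72 and 7.83 with TGF-b1, against 9.53, 9.47 and 9.18 without. No arrays overlapped, and Fosl1 was lower by -1.02 ± 0.19, or 0.493-fold (adjusted p = 0.00193), with -0.72 in its second probe set (adjusted p = 0.00273 over all probe sets). Fosl2 read 7.14, 7.08 and 6.94 with TGF-b1, against 6.93, 6.88 and 6.92 without. That is the probe set that also showed no call in NMuMG cells. The groups were apart by little and below the median gene level, and the change of 0.15 ± 0.09 was not called (adjusted p = 0.281).

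Atf3 read 10.69, 10.64 and 10.71 with TGF-b1, against 9.78, 10.21 and 10.21 without. Arrays with TGF-b1 were tight and all above the others. The change was 0.61 ± 0.12, or 1.53-fold (adjusted p = 0.00289). Maff read 9.14, 8.88 and 8.95 with TGF-b1, against 8.61, 8.57 and 8.75 without. Its groups did not overlap, and the change was 0.35 ± 0.08 (adjusted p = 0.00606). Without array 1 of ns-siRNA alone 4 of the 9 genes were called. Over the fits that each left out 1 NM18 array, 3103 to 4034 of 12393 genes were called. The 4 were Jun at 1.21 (adjusted p = 0.000135), Fosl1 at -0.95 (0.0101), Atf3 at 0.47 (0.00746) and Maff at 0.33 (0.0239). Set beside the 2 h values, Atf3 stood at 0.61 at 40 h in NM18 cells, against 0.02 in newly made and -0.02 in total RNA at 2 h in NMuMG cells, and Fosl1 stood at -1.02, against -0.27 and -0.24. Cell line, array, time, siRNA, 4sU and the amplification of the RNA all differ between the sets, so no test was made of these differences.

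Mean levels of epithelial, basal, fibroblast and leukocyte markers also differed between these groups. Counts of called markers stand against 30.7% of all genes called, 13.2% higher and 17.5% lower, and are no result about the markers. Of 10 epithelial markers 1 was called higher and 2 lower at 40 h, and their mean level was 9.70 to 9.80 with TGF-b1, against 9.92 to 10.01 without. Of 6 basal markers 2 were called higher and none lower, at 6.52 to 6.77 with TGF-b1, against 6.30 to 6.5 without. Of 8 fibroblast markers 1 was called higher and none lower, at 6.03 to 6.07, against 5.84 to 5.92. Of 8 leukocyte markers 2 were called higher and 1 lower, at 6.72 to 6.76, against 6.79 to 6.83. Of 5 endothelial markers 1 was called higher and none lower, at 5.87 to 5.92, against 5.75 to 5.88, with overlap. Their part in the AP-1 values was not tested.

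FoxQ1 siRNA, set against ns-siRNA with TGF-b1 in both groups, went with lower Atf3, Maff and Jun. These 3 of 9 genes were called lower and none higher, against 19.6% of all genes called, 11.3% higher and 8.28% lower. The ns-siRNA arrays with TGF-b1 are also the treated arrays of the comparison above, so a high reading there raises the TGF-b1 effect and lowers the FoxQ1 siRNA effect at once.

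Atf3 read 9.96, 9.68 and 10.05 with FoxQ1 siRNA and TGF-b1, against 10.69, 10.64 and 10.71 with ns-siRNA and TGF-b1. The groups lay apart, and Atf3 was lower by -0.78 ± 0.12, or 0.582-fold (adjusted p = 0.00117). Maff read 8.59, 8.55 and 8.59 with FoxQ1 siRNA, against 9.14, 8.88 and 8.95 with ns-siRNA. Again no arrays overlapped, and the change was -0.41 ± 0.08 (adjusted p = 0.00375). Jun read 10.21, 9.86 and 10.16 with FoxQ1 siRNA, against 10.53, 10.31 and 10.44 with ns-siRNA. Its groups were close without overlapping, at -0.35 ± 0.11 (adjusted p = 0.0452). The Jun call was lost in 5 of 15 alternatives. They left out array 2 or 3 of FoxQ1 siRNA, array 1 or 3 of ns-siRNA with TGF-b1 or array 1 of ns-siRNA alone, with adjusted p from 0.0599 to 0.170, and the other Jun probe set gave -0.21 (adjusted p = 0.187 over all probe sets).

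The other 6 genes were not called. Fos read 8.63, 8.86 and 8.55 with FoxQ1 siRNA, against 7.94, 8.05 and 8.28 with ns-siRNA. The groups did not overlap, but the spread taken over all NM18 arrays, which includes the wide group without TGF-b1, gave 0.59 ± 0.44 (adjusted p = 0.435). A fit on these 6 arrays alone called Fos higher (adjusted p = 0.00445). Jund was at -0.23 (adjusted p = 0.138), and at -0.33 and called without array 1 of FoxQ1 siRNA (0.0334). Fosl2 was at -0.10 (0.517), Fosb at 0.03 (0.874), Fosl1 at 0.17 (0.632) and Junb at 0.21 (0.573). Of 10 epithelial markers 4 were called higher with FoxQ1 siRNA and none lower, with a mean level of 10.12 to 10.13 with FoxQ1 siRNA and TGF-b1, against 9.70 to 9.80 with ns-siRNA and TGF-b1. Of 8 leukocyte markers 3 were called higher and none lower, with a mean level of 6.84 to 6.89, against 6.72 to 6.76. Of 6 basal markers 1 was called higher and none lower, at 6.76 to 6.91, against 6.52 to 6.77. No fibroblast or endothelial marker was called. These counts stand beside 19.6% of all genes called, 11.3% higher and 8.28% lower. The part of these markers in the AP-1 values was not tested.

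**Figure D4:**
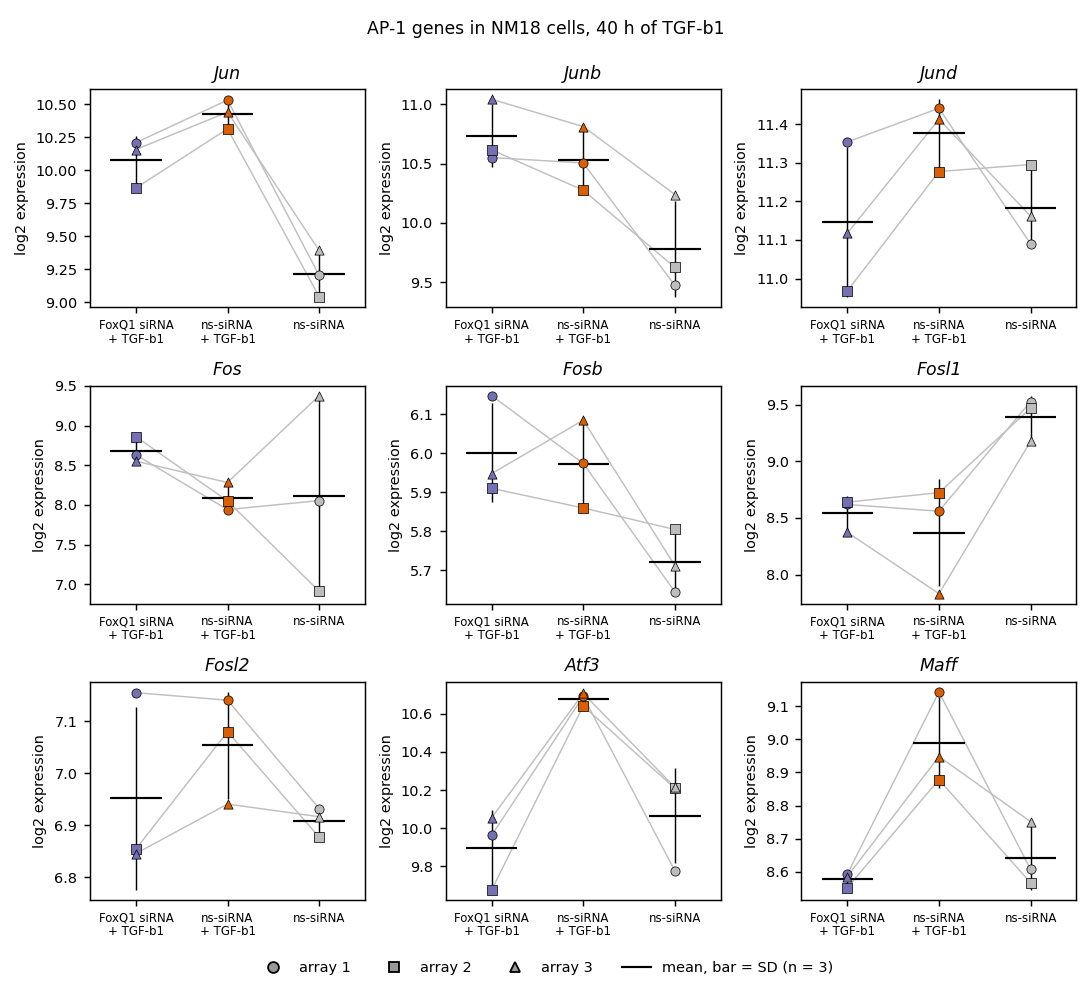
Log2 expression of the 9 AP-1 genes in NM18 cells, with FoxQ1 siRNA and TGF-b1 at the left, ns-siRNA with TGF-b1 in the middle and ns-siRNA alone at the right. Points are single arrays with lines joining arrays of 1 number, and bars show the mean and SD of 3 arrays. Atf3 and Maff are highest in the middle group, Fosl1 is highest in the group without TGF-b1, and Fos without TGF-b1 spreads between 6.91 and 9.38.

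Set directly against ns-siRNA alone, FoxQ1 siRNA with TGF-b1 left 4 of 9 AP-1 genes called, against 37.9% of all genes, 19.3% higher and 18.6% lower, so that the count is near the background. Jun at 0.86 ± 0.11 (adjusted p = 8.09e-05), Junb at 0.96 ± 0.20 (0.00259) and Fosb at 0.28 ± 0.08 (0.0206) were called higher, and Fosl1 at -0.85 ± 0.19 (0.00435) was called lower. Leaving out array 1 of FoxQ1 siRNA or array 1 or 3 of ns-siRNA alone ended the Fosb call (0.0534 to 0.0949). Atf3 was not called, at -0.17 with a 95% interval from -0.44 to 0.10, but was called lower without array 1 of ns-siRNA alone, at -0.31 (adjusted p = 0.0389). Nor was Maff, at -0.06 with an interval from -0.24 to 0.11. Fos, at 0.57 (adjusted p = 0.386), rested on single arrays of ns-siRNA alone. It was -0.03 without array 2 and 1.2 without array 3, where it was called (adjusted p = 0.00498). Without array 1 of ns-siRNA alone Jun stood at 0.86 (adjusted p = 0.000565), Junb at 0.80 (0.0133) and Fosl1 at -0.78 (0.0206). In mean level Jun was ordered ns-siRNA with TGF-b1 (10.43 ± 0.11), FoxQ1 siRNA with TGF-b1 (10.08 ± 0.19) and ns-siRNA alone (9.21 ± 0.18), with no overlap between neighbours (SD, n = 3). For Atf3 the order was ns-siRNA with TGF-b1 (10.68 ± 0.03), ns-siRNA alone (10.07 ± 0.25) and FoxQ1 siRNA with TGF-b1 (9.90 ± 0.20), and the last 2 overlapped. Maff had the same order, at 8.99 ± 0.14, 8.64 ± 0.10 and 8.58 ± 0.02, with overlap of the last 2.

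Genes around AP-1 were read from lists, whose counts stand beside the same shares of all genes called as above. Of the bZIP partners, relatives that can pair with AP-1 proteins, 22 were measured in NMuMG cells. At 2 h 3 were called higher and 2 lower in newly made RNA, and 2 higher and 3 lower in total RNA. Over all genes 6.13% were called in newly made and 2.48% in total RNA. Bach1, a repressor that pairs with small Maf proteins, was higher by 0.63 in newly made RNA (adjusted p = 0.00240) and 0.78 in total RNA (adjusted p = 0.000704). Nfe2l2, an activator that pairs with the same small Mafs, was lower by -1.0 in newly made RNA (adjusted p = 0.00277) and -0.87 in total RNA (adjusted p = 0.0150). The total RNA call of Nfe2l2 was lost without array 1 or 3 of control total RNA or array 3 of TGF-b1 total RNA, with adjusted p up to 0.107. The median change of the list was -0.06 in newly made RNA, against -0.01 over all genes. At 40 h in NM18 cells 5 of 21 partners were called higher and 5 lower, against 30.7% of all genes called. Cebpa, with the smallest p of the list, was lower by -1.24 (adjusted p = 4.20e-05). Bach1 stood at 0.47 (adjusted p = 0.000430) and Nfe2l2 at -0.97 (adjusted p = 0.000300). With FoxQ1 siRNA 2 of 21 were called higher and 3 lower, a count near the 19.6% of all genes called. The lower ones were Bach1 at -0.81 (adjusted p = 1.84e-05), Jdp2 at -0.71 (0.00731) and Cebpg at -0.65 (0.000656). Jdp2 encodes a repressor that pairs with Jun.

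Of the MAP kinase and serum response factor (SRF) inputs to AP-1 genes, 23 were measured in each table. In newly made RNA at 2 h, where 6.13% of all genes were called, 3 were called higher and none lower. They were Mrtfa, a coactivator of SRF, at 1.0 (adjusted p = 0.000360), and the kinases Map2k1 at 0.85 (0.0100) and Map2k3 at 0.52 (0.0221). Leaving out array 2 of TGF-b1 newly made RNA ended the calls of Map2k1 (0.0520) and Map2k3 (0.0604). The Map2k3 call was also lost without array 1 of TGF-b1 newly made RNA (0.0866) or array 1 or 2 of control newly made RNA (0.0604 and 0.0618), and that of Map2k1 on the compared arrays alone (0.0668). In total RNA Mrtfa alone was called, at 0.76 (adjusted p = 0.00663), and lost the call without array 2 of TGF-b1 total RNA (0.0515). At 40 h 8 were called higher and 5 lower, against 30.7% of all genes called. Mrtfa at 0.95 (adjusted p = 7.41e-05) and Srf at 0.72 (adjusted p = 0.000192) were among the higher. Map3k5 at -1.20 (adjusted p = 2.09e-05) was among the lower. With FoxQ1 siRNA 2 were higher and 5 lower, against 19.6% of all genes called. Tab2, with the smallest p of the list, was lower by -0.66 (adjusted p = 8.62e-05). Map3k5 stood at 0.92 (adjusted p = 0.000224), Mapk14 at -0.70 (adjusted p = 0.000526) and Srf at -0.55 (adjusted p = 0.00230). Averaging all probe sets of a gene ended this Srf call (0.0518).

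Of 16 measured genes known from other work as AP-1 targets, 5 were called higher and 2 lower in newly made RNA at 2 h. Of all genes 6.13% were called there, and the median change of the list was 0.37. Il11, a secreted cytokine, was higher by 2.53 (adjusted p = 1.84e-05), Sphk1, a lipid kinase, by 1.61 (7.69e-06), and Vegfa, an angiogenic growth factor, by 1.11 (8.95e-05). The collagenase gene Mmp13 was lower by -1.69 (adjusted p = 0.000324). In total RNA 3 were higher and 1 lower, against 2.48% of all genes called. The lower one was the MAP kinase phosphatase Dusp1 at -0.99 (adjusted p = 0.00128). At 40 h in NM18 cells 9 of 16 were higher and 1 lower, with a median of 0.53, against 30.7% of all genes called. The higher ones included Sphk1 at 2.14 (adjusted p = 1.08e-05), the integrin gene Itga5 at 1.40 (3.38e-06) and the stromelysin gene Mmp10 at 1.08 (5.08e-05). With FoxQ1 siRNA 2 were higher and 2 lower, a count near the 19.6% of all genes called. The median was -0.17, and Itga5 was among the higher at 0.56 (adjusted p = 0.00159).

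Of 20 immediate-early genes outside AP-1, 3 were called higher and 1 lower in newly made RNA at 2 h, and 3 higher and 2 lower in total RNA. Of all genes 6.13% were called in newly made and 2.48% in total RNA. Rhob had the smallest p of the list in newly made RNA. It was higher by 1.61 there (adjusted p = 5.32e-05) and by 1.51 in total RNA (adjusted p = 0.000175). The zinc finger gene Egr2 was higher by 2.50 in newly made RNA (adjusted p = 0.000282) and 1.88 in total RNA (adjusted p = 0.00589). The mRNA decay factor gene Zfp36 was lower by -0.92 (adjusted p = 0.000124) and -1.16 (adjusted p = 2.36e-05). At 40 h 6 of 19 were higher and 2 lower, against 30.7% of all genes called. Rhob stood at 1.90 (adjusted p = 5.45e-06) and Gadd45b at 1.5 (adjusted p = 3.46e-05). With FoxQ1 siRNA 3 were higher and 5 lower, against 19.6% of all genes called. Egr2 stood at 1.62 (adjusted p = 1.34e-05), Klf4 at -1.11 (6.97e-05) and Gadd45b at -1.17 (0.000340).

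**Figure D5:**
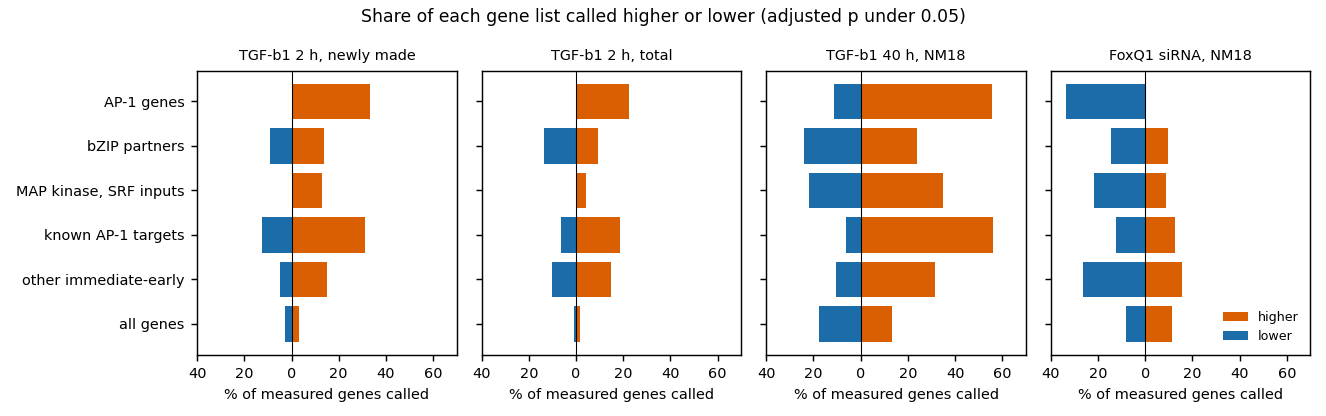
Percent of the measured genes of each list called higher (right of 0) or lower (left of 0) at an adjusted p under 0.05, in 4 comparisons, with all genes of the table in the lowest row. Among AP-1 genes 3 of 9 and 2 of 9 are called at 2 h, all higher, 6 of 9 at 40 h and 3 of 9, all lower, with FoxQ1 siRNA.

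The genes most like each AP-1 gene over the 12 NMuMG arrays were found by Pearson's r among 9095 genes above the median level, as a description without a test. The arrays share 4 groups, whose means enter each r. Jun was most like Plekha2 (r = 0.997) and Slc20a1 (r = 0.993), and Fosl2 was most like Snx18 (0.994) and Jmjd1c (0.990). For Fosl1 these were Fkbp7 and Srbd1 (both 0.983), for Atf3 Trim36 (0.978) and Mpp7 (0.976), and for Jund Faap20 (0.952) and Gpt2 (0.938). Fosb was most like Csrnp1 (0.961) and Rnf11 (0.958). Fos was most like Dusp14 (0.910) and Ccn1 (0.864), and Maff was most like Rai1 (0.953) and Arid3a (0.95). Junb was most like Shroom1 (0.948) and Maff (0.945). Within the family, over the same 12 arrays, r was 0.96 for Jun with Fosl2 and -0.95 for Atf3 with Fosl1.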

How the data were processed

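Expression was measured on Affymetrix mouse arrays, 12 from NMuMG cells after 2 rounds of amplification and 9 from NM18 cells after 3′ in vitro transcription, per the labels' protocols. The values are the authors' deposited log2 expression values per probe set. The log2 scale was inferred from their range, since no label states it. Background correction and normalization: not given in the sources used here. The submitters' processing notes list affy 1.18.2 and no step for it. The number of arrays limits the precision.

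Probe sets with 1 symbol in the platform annotation were kept, 34945 of 45101 and 20380 of 22690. Groups were compared in limma 3.58.1 (R 4.3.3, lmFit and eBayes, two-sided), 1 fit per table over all its arrays, with Benjamini-Hochberg adjustment over all genes, and 8 comparisons were made. The fit was tested on simulated data. The AP-1 genes, the lists and the rule for naming list genes (called, smallest p, at most 4 per list and comparison) were chosen with earlier results of these data known. Only some of the list genes that met this rule are printed, so the printed genes are not always those with the smallest p.

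Same-numbered arrays deviated together from their group means at r over 0.1 in every pair for TGF-b1 against control and for all NM18 comparisons. For TGF-b1 against control r was 0.73, 0.34 and 0.46 in newly made RNA and 0.41, 0.12 and 0.21 in total RNA. Arrays of different numbers were not compared, and the labels number the replicates without stating a pairing. A shared culture and a shared processing run therefore cannot be told apart. Newly made and total RNA of 1 number did not reach r over 0.1 in every pair. Their r was 0.01 in 1 pair of TGF-b1 cells and 0.02 in 1 pair of control cells, and whether they came from 1 culture is not stated.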

Additional observations from a re-analysis of the deposited data

How the results depend on the processing

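Directions of the AP-1 genes that were called, and of the list genes that met the naming rule, held under every alternative run. Counts of calls under alternatives took in every AP-1 gene in each comparison, called or not, and the list genes that met the naming rule. Of these values, 2980 kept the side of the threshold, 34 gained a call and 78 lost a call. Values of AP-1 genes that stayed uncalled are among the 2980, so this count does not measure how stable the calls were. For TGF-b1 at 2 h, with 3 AP-1 genes called in newly made and 2 in total RNA, the replicate block gave 6 and 5, the block within each kind of RNA gave 6 and 6, and a fit on the compared arrays alone gave 5 in total RNA. Leaving out 1 array gave 2 to 5 in newly made RNA, with 5 without array 1 of control newly made RNA, where Junb (adjusted p = 0.00507) and Fosb (0.0379) were called, and 2 to 3 in total RNA. Over all genes, 1116 were called in newly made RNA, against 2320 with the block within each kind of RNA and 680 on the compared arrays alone. Without 1 array 758 to 1288 were called. For total RNA the count over all genes on the compared arrays alone is not given here. In total RNA 452 were called, against 308 to 524 without 1 array, 701 with the replicate block and 1025 with the block within each kind of RNA. The interaction called 12 genes, against 39 and 86 with these blocks, 21 with quantile normalization and 4 to 20 without 1 array. Without array 1 of control newly made RNA it was 20, and without array 1 or 2 of TGF-b1 total RNA it was 4. Each lost or gained call of an AP-1 gene by 1 array is given with its result. The cause of these shifts was not tested. For newly made against total RNA the replicate block called Junb lower, in TGF-b1 cells (adjusted p = 0.00845) and in control cells (0.00517). Apart from the changes given here and in the results, the block changed no other call of an AP-1 gene. Filtering to genes above the median level gave no value for Fosb and Fosl2 in NM18 cells.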

Other observations

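For newly made against total RNA, 45.0% of all genes were called in TGF-b1 cells, 18.3% higher and 26.8% lower, and 44.0% in control cells, so that counts over the lists around AP-1 are no result about these lists. Of 22 bZIP partners 9 were called higher and 4 lower in newly made RNA of TGF-b1 cells, and 10 higher and 3 lower in control cells. Bach1 was higher by 2.37 in TGF-b1 cells (adjusted p = 4.68e-10), and Creb1, the cyclic AMP response factor, by 2.07 (6.55e-09). Atf5 was lower by -1.07 (2.36e-06). Of 23 MAP kinase and SRF inputs 10 were higher and 5 lower in TGF-b1 cells, with the adaptor gene Traf6 at 1.95 (adjusted p = 2.67e-09) and the kinase gene Map2k2 at -2.09 (5.08e-09). Of 20 immediate-early genes 8 were higher and 4 lower in TGF-b1 cells, with Klf6 at 2.32 (adjusted p = 1.12e-09). The 3′ to 5′ readings given with the AP-1 genes differ between these groups in the same way, and their part was not tested.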
